A study of Mus musculus with 6 samples.

Results

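Tumour cells that leave an epithelium have to cut through basement membrane and collagen, and the proteases that do this are held in check by dedicated inhibitors. The genes described here are 9 of these, chosen by name as proteases of invasion and their inhibitors: *Plau*, *Plaur*, *Mmp9*, *Mmp10*, *Mmp13*, *Mmp14*, *Timp1*, *Timp2* and *Timp3*. Each had a row of its own in the gene tables, so 9 of 23698 rows are described. The study compared transcript isoforms of mouse epidermal stem cells, keratinocytes of wild-type mice and a cultured model of squamous cell carcinoma named SCCc. Of its 6 samples, 3 had gene tables used here, all from SCCc: 1 ribosome profiling library and 2 RNA-seq replicates. The other 3 samples, sequenced with long reads, were not analysed here. The gene tables used here therefore give levels within 1 condition, and no comparison with wild-type cells was made.

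SCCc are keratinocytes from newborn (P0) mouse back skin that carry *Hras* G12V and a knockout of floxed *Tgfbr2* (Tgfbr2 fl/fl KO). The labels give passages 10 to 15 for all 3 libraries. The cells are a line made earlier from a tumour model that grows as allografts, and they were grown in culture in low-calcium medium. The labels do not say whether the RNA-seq replicates came from separate cultures. Nor do they say whether the ribosome profiling library shared a culture with either of them. RNA-seq measures mRNA abundance, and ribosome profiling reads out the stretches of mRNA shielded by ribosomes from nuclease, called footprints. Counts on exons summed to 10707930 and 14003713 in RNA-seq replicates 1 and 2 and to 3549555 in the ribosome profiling library, of which 3198469 lay on coding sequence (CDS). Levels are given as RPKM, the reads per kilobase of counted sequence and per-million exon counts of that library. A gene is called detected from 3 counts, and the RPKM of 3 counts is its detection limit. Intervals in brackets are 95% counting intervals, and both they and the limits cover counting error only, since reads copied by PCR from one molecule are counted more than once.

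Urokinase, encoded by *Plau*, is a secreted serine protease that turns plasminogen into plasmin, and its receptor uPAR, encoded by *Plaur*, holds it at the cell surface. Plasmin degrades fibrin and matrix proteins and can activate latent matrix metalloproteinases. The membrane-anchored collagenase MT1-MMP (*Mmp14*) cuts fibrillar collagen next to the cell and activates pro-MMP2 in a complex that needs TIMP2. MMP9 is a gelatinase, MMP10 a stromelysin and MMP13 a collagenase, and all are secreted as latent enzymes. The tissue inhibitors TIMP1, TIMP2 and TIMP3 block the active site of metalloproteinases. In skin, these enzymes are best known from wound edges and from the invasive front of carcinomas.

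The labelled cell type and genotype were looked at first. All 11 keratinocyte markers were detected and passed the expression filters, and *Krt5*, the most abundant, reached 7965 and 9483 RPKM in RNA-seq replicates 1 and 2 with 28660 footprints. *Tgfbr2*, the knockout target, had 3150 and 3958 RNA-seq counts (61.4 and 59.0 RPKM) and 193 footprints on the CDS (30.7 RPKM). Transcripts from which a floxed exon has been removed are still counted as *Tgfbr2*, so a count over the whole gene does not check the knockout. *Hras* had 1179 and 1619 RNA-seq counts and 128 footprints, and counts do not show a base change.

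Transcripts of all 9 genes reached 3 counts in both RNA-seq replicates, as did 53.4% of all 23698 rows, but they fell into 2 groups of very different level. The first held *Timp2*, *Mmp14*, *Plau*, *Timp1* and *Plaur*, which had between 97.3 and 5440 counts in each replicate. The second held *Mmp13*, *Mmp9*, *Mmp10* and *Timp3*, with between 3.0 and 19.0 counts in each replicate. With a limit of 10 counts in place of 3, only the 5 genes of the first group were detected, against 48.5% of all rows. In bulk RNA, transcripts in few cells and low transcript levels in all cells cannot be told apart. The plot of RNA and footprint levels shows the gap between the groups and where the values of the second lie relative to the detection limit.

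**Figure D1:**
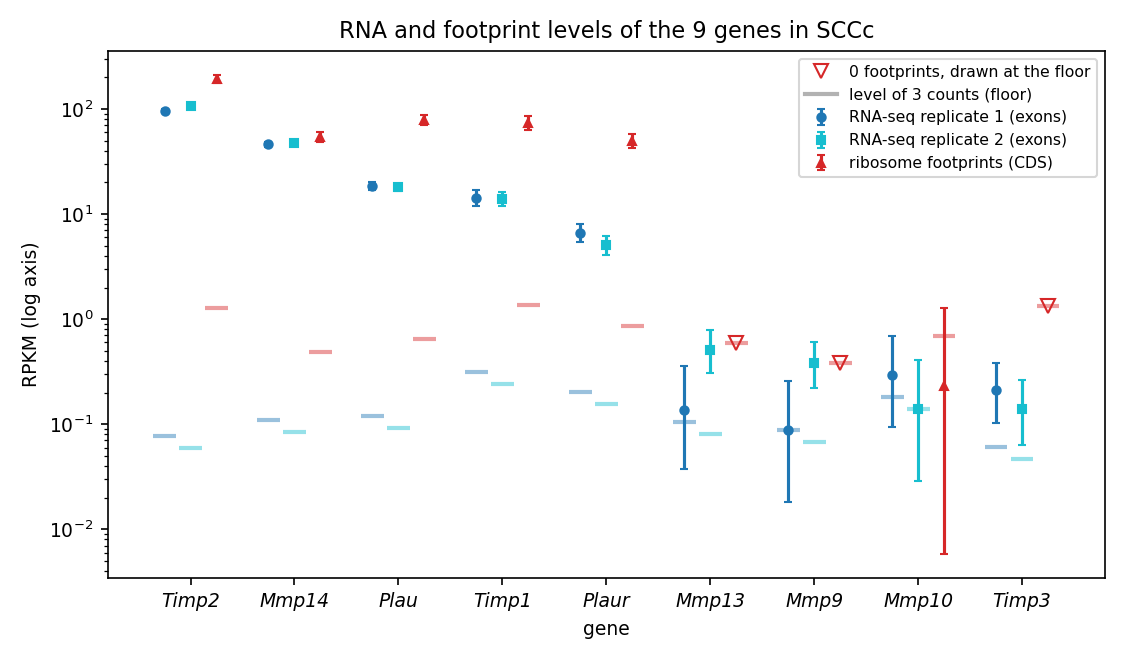
RPKM (log axis) of the 9 genes in each RNA-seq replicate, over exons, and in the ribosome profiling library, over the CDS, with bars for the 95% counting interval and short lines for the level of 3 counts. *Timp2*, *Mmp14*, *Plau*, *Timp1* and *Plaur* lie far above that level in every library, and open triangles mark *Mmp13*, *Mmp9* and *Timp3*, which had 0 footprints.

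Both genes of plasminogen activation were expressed. *Plau* (ENSMUSG00000021822.3, chr14:20836660-20843385 of GRCm38, plus strand) had 461 and 584 RNA-seq counts, or 18.6 and 18.0 RPKM (18.3 ± 0.41, SD, n = 2), far above detection limits of 0.121 and 0.0925 RPKM. On its CDS lay 364 footprints, 79.0 RPKM (71.1 to 87.6). The protease transcript thus stood near the middle of expressed genes in RNA, at percentile 56.0 of the genes that passed the filters, and at percentile 81.4 in footprints.

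*Plaur* (ENSMUSG00000046223.10, chr7:24462484-24475968, plus strand) was the least abundant of the first group. It had 98.3 and 97.3 RNA-seq counts, which correspond to 6.67 and 5.05 RPKM (5.86 ± 1.14, SD, n = 2) because replicate 2 was sequenced more deeply. Its footprints numbered 172, or 49.4 RPKM (42.3 to 57.3). The receptor therefore ranked at percentile 20.4 in RNA but at percentile 72.6 in footprints. The counted CDS covered 79.7% of all bases annotated as coding in any *Plaur* transcript. Its full length of 981 bases equals that of the 1 transcript annotated as protein-coding.

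Among the metalloproteinases, the membrane-anchored *Mmp14* (ENSMUSG00000000957.11, chr14:54431612-54445364, plus strand) stood apart from the 3 secreted ones. It had 1259 and 1700 RNA-seq counts, 46.1 and 47.6 RPKM (46.9 ± 1.07, SD, n = 2), and 338 footprints, 54.5 RPKM (48.8 to 60.6). It made up 98.9% and 97.9% of the RPKM summed over these 4 genes in replicates 1 and 2 and 99.6% of their summed footprint RPKM. Over all 23 metalloproteinases listed here its shares were 60.4%, 58.7% and 84.0%. The counted CDS covered 86.3% of all bases annotated as coding in any *Mmp14* transcript. Its 1746 bases equal the length of the longest CDS among the protein-coding transcripts of the gene.

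The gelatinase gene *Mmp9* (ENSMUSG00000017737.2, chr2:164940780-164955850, plus strand) had 3.0 RNA-seq counts in replicate 1, exactly at the limit, and 16.9 in replicate 2. These correspond to 0.0884 RPKM (0.0182 to 0.258) and 0.381 RPKM (0.222 to 0.611). No footprint lay on its CDS, of which 99.8% was counted. Its detection limit in footprints was 0.387 RPKM, and the interval of 0 footprints reached 0.475 RPKM. At the RNA level seen, a gene of median translational efficiency would have given 2.31 footprints, so its translation was not measurable at this depth.

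*Mmp13* (ENSMUSG00000050578.10, chr9:7272514-7283331, plus strand), a collagenase, showed the same picture, with 3.95 and 19.0 RNA-seq counts, or 0.138 RPKM (0.0372 to 0.355) and 0.507 RPKM (0.305 to 0.792). It too had 0 footprints, where 2.06 would be the number at median efficiency. Its detection limit in footprints was 0.597 RPKM, and the interval of 0 footprints reached 0.734 RPKM. Its whole CDS was counted.

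*Mmp10* (ENSMUSG00000047562.3, chr9:7502352-7510240, plus strand), the stromelysin, had 4.84 and 3.0 RNA-seq counts, or 0.296 RPKM (0.0938 to 0.699) and 0.140 RPKM (0.0289 to 0.409). A single footprint was counted, 0.230 RPKM (0.00583 to 1.28), which is below the limit of 3. Hence neither replicate nor the footprints separate it from a gene at the detection limit. Of its annotated CDS, 85.6% was counted.

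Of the inhibitors, *Timp2* (ENSMUSG00000017466.9, chr11:118301069-118355740, minus strand) was the most abundant of all 9 transcripts. It had 3723 and 5440 RNA-seq counts, 96.0 and 107 RPKM (102 ± 7.96, SD, n = 2), and 454 footprints, 194 RPKM (176 to 212). It ranked at percentile 93.1 of expressed genes in RNA and 91.5 in footprints, the highest of the 9 on both scales.

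*Timp1* (ENSMUSG00000001131.11, chrX:20870166-20874735, plus strand) had 136 and 174 RNA-seq counts, 14.3 and 14.0 RPKM (14.1 ± 0.22, SD, n = 2). On its fully counted CDS lay 161 footprints, 73.5 RPKM (62.6 to 85.8). This inhibitor, like the urokinase receptor, stood below the middle of expressed genes in RNA, at percentile 47.2, and well above it in footprints, at percentile 80.3.

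*Timp3* (ENSMUSG00000020044.13, chr10:86300372-86349506, plus strand), the inhibitor that binds to matrix, was the least abundant of the 3 inhibitors and did not pass the expression filters. It had 10.4 and 9.0 RNA-seq counts, 0.212 RPKM (0.104 to 0.386) and 0.140 RPKM (0.0641 to 0.266), and no footprint. In replicate 1 none of these counts lay on the CDS, and in replicate 2 3.0 did. Its exons share 1733 annotated bases with those of *Syn3*, and since strand-specific counting is not stated in the sources used here, reads of the 2 genes cannot be told apart there. The CDS is short and few footprints would be seen, 0.50 at median efficiency. Its detection limit in footprints was 1.34 RPKM, and the interval of 0 footprints reached 1.64 RPKM.

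In RNA, the order was *Timp2*, *Mmp14*, *Plau*, *Timp1* and *Plaur*, and no neighbours in it overlapped between replicates. The closest pair was *Plau* over *Timp1*, with a log2 ratio of 0.37 (0.19 to 0.56), and the next step, *Timp1* over *Plaur*, was 1.30 (1.03 to 1.56). *Plaur* stood 4.05 (3.42 to 4.74) above *Mmp13* on the log2 scale. Below that gap *Mmp13*, *Mmp9*, *Mmp10* and *Timp3* overlapped between neighbours and have no resolved order. In footprints the order changed to *Timp2*, *Plau*, *Timp1*, *Mmp14* and *Plaur*. *Timp2* exceeded *Plau* by a log2 ratio of 1.29 (1.09 to 1.50), whereas *Plau* and *Timp1* differed by 0.10 (-0.17 to 0.38) and *Mmp14* and *Plaur* by 0.14 (-0.13 to 0.42), both within counting error.

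Summed over the inhibitors and the metalloproteinases among the 9 genes, inhibitor RNA exceeded metalloproteinase RNA. The 3 inhibitors together gave 110.5 and 121 RPKM in RNA-seq replicates 1 and 2, and the 4 metalloproteinases 46.6 and 48.7 RPKM. The log2 ratio was 1.24 and 1.32 (mean 1.28 ± 0.05, SD, n = 2), a 2.43-fold excess. For footprints the sums were 267 and 54.7 RPKM, a log2 ratio of 2.29 (2.10 to 2.48). This balance is that of *Timp2* and *Timp1* against *Mmp14*, since the other genes added little to either sum. RPKM of transcripts and footprints says nothing of how much protein was secreted, kept or active. On RNA counted over the CDS in place of exons the RNA ratio was 1.85, and with counts not divided by length the footprint ratio was 0.86. With all 5 inhibitors and 23 metalloproteinases listed here in place of the 3 and 4, a choice made after seeing the data, inhibitor RNA summed to 110.6 and 121.4 RPKM and metalloproteinase RNA to 76.4 and 81.2 RPKM. The excess in RNA was then 1.47-fold (log2 ratio of 0.53 and 0.58), and the log2 ratio of footprints was 2.04. The inhibitor sum was the higher one in each of these.

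Translational efficiency divides the footprint RPKM of a gene's CDS by its exon RPKM averaged over the RNA-seq replicates. It was computed for genes above 1 RPKM in both replicates with footprints on the CDS and a base mean, the mean count over the libraries after scaling, above 25. It is given on the log2 scale relative to the median of the 9863 genes that passed, so 0 is the typical gene of these cells. The 5 genes of the first group passed, and the 4 of the second did not, while 41.6% of all rows passed. Of the 5, 3 lay above 1, *Plaur*, *Timp1* and *Plau*, a level reached by 20.8% of all genes that passed. None of the 5 lay below -1, where 21.1% of all genes lay. The median of the 5 was 1.77, against 0 for all genes by construction. It was 0.78 when each library had to hold 100 counts or more, which dropped *Plaur* and raised the median gene that 0 stands for by 0.39, and 1.15 with no filter, which let in *Mmp10* on 1 footprint. With so few genes, chosen by name, this describes them and is not a test of a class.

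*Plaur* had the highest value, 2.73 (2.46 to 3.06), which is 6.65-fold above the median gene and at percentile 97.0. Against RNA-seq replicates 1 and 2 separately it was 2.55 and 2.95, a spread (SD 0.28) larger than for the other 4 genes. *Timp1* followed at 2.04 (1.75 to 2.32), 4.10-fold, and *Plau* at 1.77 (1.59 to 1.94), 3.40-fold. Thus the protease, its receptor and one inhibitor shared a high footprint density for their RNA in these libraries. Differences between the cultures behind the footprint and RNA-seq libraries would enter these values and are not covered by the intervals. *Plaur* exceeded *Timp1* by 0.70 (0.29 to 1.10), while the difference between *Timp1* and *Plau*, 0.27 (-0.05 to 0.59), was within counting error. *Plau* in turn exceeded *Timp2* by 1.18 (0.96 to 1.40).

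The most abundant transcripts were nearer to the typical gene. *Timp2* had a log2 translational efficiency of 0.59 (0.44 to 0.71), 0.67 and 0.51 against the separate replicates, and *Mmp14* -0.12 (-0.29 to 0.03). *Timp2* exceeded *Mmp14* by 0.71 (0.50 to 0.92), but with counts not divided by length the order turned, with *Timp2* at -0.86 and *Mmp14* at 0.34. The value of *Timp2* depended on the region counted, its 3′UTR making up 2641 of 3622 counted bases. RNA over its CDS was denser, 182 and 206 RPKM, than over its 3′UTR, 85.9 and 95.2 RPKM, and with RNA counted over the CDS its efficiency was -0.05. By the same measure *Plau* was 1.93, *Timp1* 1.99, *Plaur* 2.73 and *Mmp14* -0.14. The scatter of footprints against RNA places *Plaur*, *Timp1* and *Plau* above the upper dashed line, and *Timp2* and *Mmp14* between the lines.

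**Figure D2:**
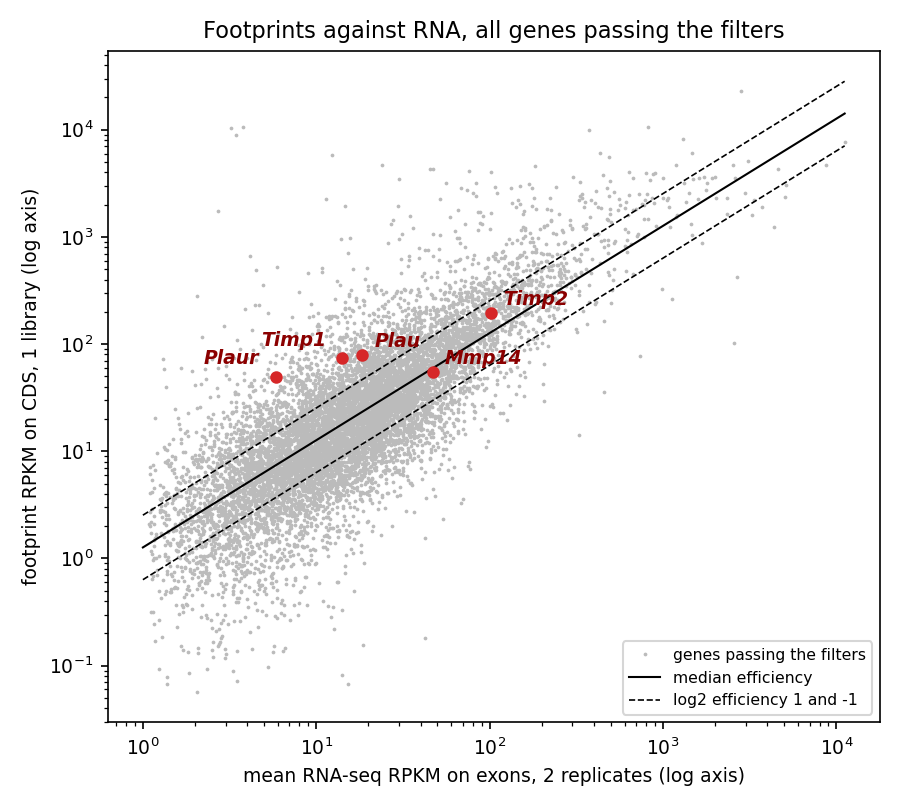
Footprint RPKM on the CDS in the 1 ribosome profiling library against exon RPKM averaged over 2 RNA-seq replicates (both log axes), for the 9863 genes that passed the filters (grey) and the 5 of the 9 genes among them (red). The solid line is the median translational efficiency and the dashed lines are log2 values of 1 and -1 from it. *Plaur*, *Timp1* and *Plau* lie above the upper dashed line.

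Footprints also lay on the 5′UTR of these transcripts, the stretch that ribosomes scan before the start codon. *Timp2* had 58.4 footprints on 321 counted bases, 51.3 RPKM, a log2 ratio to its CDS of -1.92. *Mmp14* had 29.0 on 262 bases, 31.2 RPKM and a ratio of -0.81, *Plau* 12.6 on 103 bases and -1.19, and *Timp1* 9.79 on 167 bases and -2.16. For comparison, the median ratio was -1.21, with quartiles of -2.26 and -0.25, over 7261 genes that passed with at least 60 counted bases and a footprint there. All 4 genes lay between these quartiles. *Plaur*, with 10 counted 5′UTR bases, was not compared.

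RNA-seq covered the same 5′UTRs unevenly. Over the *Timp2* 5′UTR RNA reached 1.62 and 4.31 RPKM in replicates 1 and 2, against 182 and 206 over its CDS. *Mmp14* likewise fell from 57.3 and 58.8 RPKM over the CDS to 7.13 and 5.18 over the 5′UTR. *Plau* kept 29.5 and 22.9 RPKM over its 5′UTR, above the 19.7 and 20.3 over its CDS. In *Timp1* RNA went from 17.9 and 17.8 RPKM over the CDS to 9.25 and 8.08 over the 5′UTR. G and C made up 73.8% of the annotated 5′UTR of *Timp2*, 61.4% in *Mmp14*, 61.9% in *Plau* and 58.5% in *Timp1*. The annotated 5′UTRs were taken from the protein-coding transcript with the longest CDS and, at a tie, the longest exons. Among those of the 5 genes, only that of *Timp1* holds ATG triplets before the start codon, 3 in 164 bases. *Timp1* has 2 protein-coding transcripts, and the other was not searched.

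**Figure D3:**
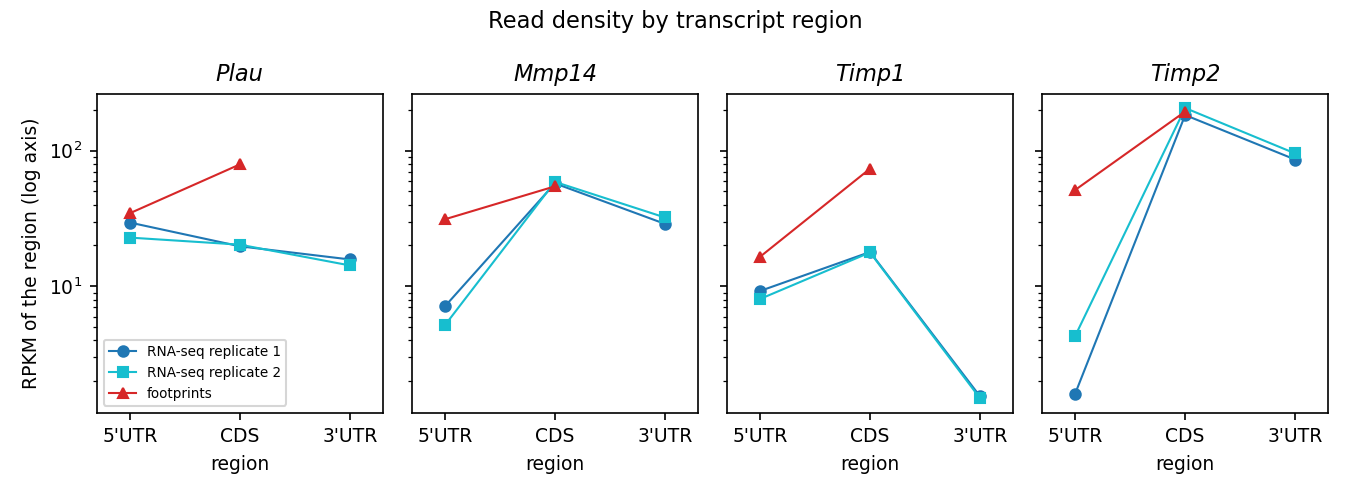
RPKM (log axis) over the counted 5′UTR, CDS and 3′UTR of *Plau*, *Mmp14*, *Timp1* and *Timp2* in each RNA-seq replicate, and over the 5′UTR and CDS for footprints. RNA falls from the CDS to the 5′UTR most in *Timp2*, from 182 and 206 to 1.62 and 4.31 RPKM, while its footprints fall from 194 to 51.3 RPKM.

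Promoter sequences were at hand for 7 of the 9 genes, from RefSeq on GRCm38.p6, each running from 250 bases before to 50 bases after the annotated start. *Plau* and *Mmp9* had no entry. Proteases of this family are known for AP-1 sites, bound by FOS and JUN proteins downstream of RAS signalling, and the windows were searched on both strands for TGAGTCA, or TGACTCA on the opposite strand. The letters stood in 3 of the 7 windows, those of *Plaur*, *Mmp13* and *Mmp10*, and in 5.20% of all 32851 promoter windows. They are shown with 11 bases on either side, on the plus strand, with the match in capitals, because they set a gene that passed the expression filters beside a pair that did not. The match began 69 bases before the start of *Plaur* (chr7:24462403-24462431), 35 before that of *Mmp13* (chr9:7272468-7272496) and 63 before that of *Mmp10* (chr9:7502268-7502296).
Plaur: acccctggagcTGACTCActctttagcaa
Mmp13: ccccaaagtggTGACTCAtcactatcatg
Mmp10: tagcacccatgTGAGTCAtgcttagtgac

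Genes with these letters thus lay on both sides of the filter of 1 RPKM, at 6.67 and 5.05 RPKM for *Plaur* and at no more than 0.507 RPKM in either replicate for *Mmp13* and *Mmp10*. TATAAA stood in the windows of *Mmp10* and *Mmp13*, 29 and 16 bases before the start, and in 13.6% of all windows. AGGAAG, a core bound by PEA3-type ETS factors, stood in 5 of the 7 windows and in 35.4% of all. These matches describe the letters only.

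Differences between the RNA-seq replicates were read against their counting intervals and against the SD of 0.20 that the log2 ratio of the replicates had across the genes that passed. On the log2 scale, replicate 2 relative to replicate 1 was -0.05 (-0.22 to 0.13) for *Plau*, -0.03 (-0.36 to 0.30) for *Timp1* and 0.05 (-0.06 to 0.15) for *Mmp14*, all smaller than that SD. *Timp2* was higher in replicate 2 by 0.16 (0.10 to 0.22), also less than the SD. *Plaur*, at -0.40 (-0.82 to 0.02), differed by more than the SD, with an interval that holds 0. *Mmp9* was higher in replicate 2 by 2.11 (0.32 to 4.52) and *Mmp13* by 1.88 (0.28 to 3.91), intervals that leave out 0. *Mmp10*, -1.08 (-3.78 to 1.31), and *Timp3*, -0.60 (-2.06 to 0.83), did not differ beyond counting error.

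Markers of fibroblasts and of macrophages, cell types that also make these enzymes, were counted beside this. All 10 fibroblast markers were detected in RNA, with a sum of 14.4 and 22.5 RPKM in replicates 1 and 2, and 594 and 1260 counts. The most abundant was *Col3a1*, with 232 and 428 counts. Counts of *Col1a1* were 102 and 276 and of *Postn* 27.8 and 94.6, and for 5 of the 10 genes the interval of the replicate ratio lay above 0. Footprints were 0 for 8 of the 10, the collagens included, although a gene with the RNA level of *Col1a1* would have had 61.0 at median efficiency. The rest had 19.8 (*Twist2*) and 10.0 (*Pdgfra*).

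Of 9 macrophage and leukocyte markers 8 were listed in the tables and 6 were detected, with a sum of 39.4 and 49.8 RPKM, most of it *Cd68* at 35.1 and 37.3 RPKM. *Lyz2* had 30.7 and 127 counts in replicates 1 and 2, *C1qa* 2.0 and 14.0, and *Ptprc*, which defines leukocytes, 5.0 and 14.0. Of the 8, 7 had 0 footprints, *Cd68* having 36.9. Of 6 neutrophil markers, *Elane*, *Camp* and *Ngp* were at 0 in all 3 libraries and only *Cxcr2* was detected in both replicates, with a list sum of 6.64 and 5.85 RPKM. The keratinocyte list summed to 21013 and 23683 RPKM. The log2 ratio of summed counts, replicate 2 relative to replicate 1, was 0.70 (0.56 to 0.84) for the fibroblast list and 0.31 (0.15 to 0.47) for the macrophage and leukocyte list. In the latter the interval lay above 0 for 2 of 8 genes, *Lyz2* (1.66) and *C1qa* (2.42). It held 0 for *Ptprc* (-0.46 to 2.93), *Cd68* (-0.08 to 0.26), *Itgam* (1.75, -0.12 to 4.21), *Tyrobp* (1.45, -0.03 to 3.24) and *Csf1r* (0.33). *Cd68*, with a ratio of 0.09, held most counts of that list, 479 of 533 in replicate 1 and 666 of 864 in replicate 2. *Dcn* (-0.29), *Pdgfrb* (-0.39) and *C1qb* (-0.39) were lower in replicate 2, with intervals that hold 0. For the keratinocyte list the ratio of summed counts was 0.160 (0.154 to 0.165). *Mmp9* and *Mmp13* were thus higher in the replicate in which the sums of the fibroblast, leukocyte and keratinocyte lists were higher. The part of fibroblast and leukocyte transcripts in the RNA counts of *Mmp9* and *Mmp13* was not tested. Endothelial markers, 2 of 5 detected, summed to 0.569 and 0.652 RPKM. Melanocyte markers, also 2 of 5, summed to 5.41 and 5.47 RPKM, nearly all of it *Pmel*.

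**Figure D4:**
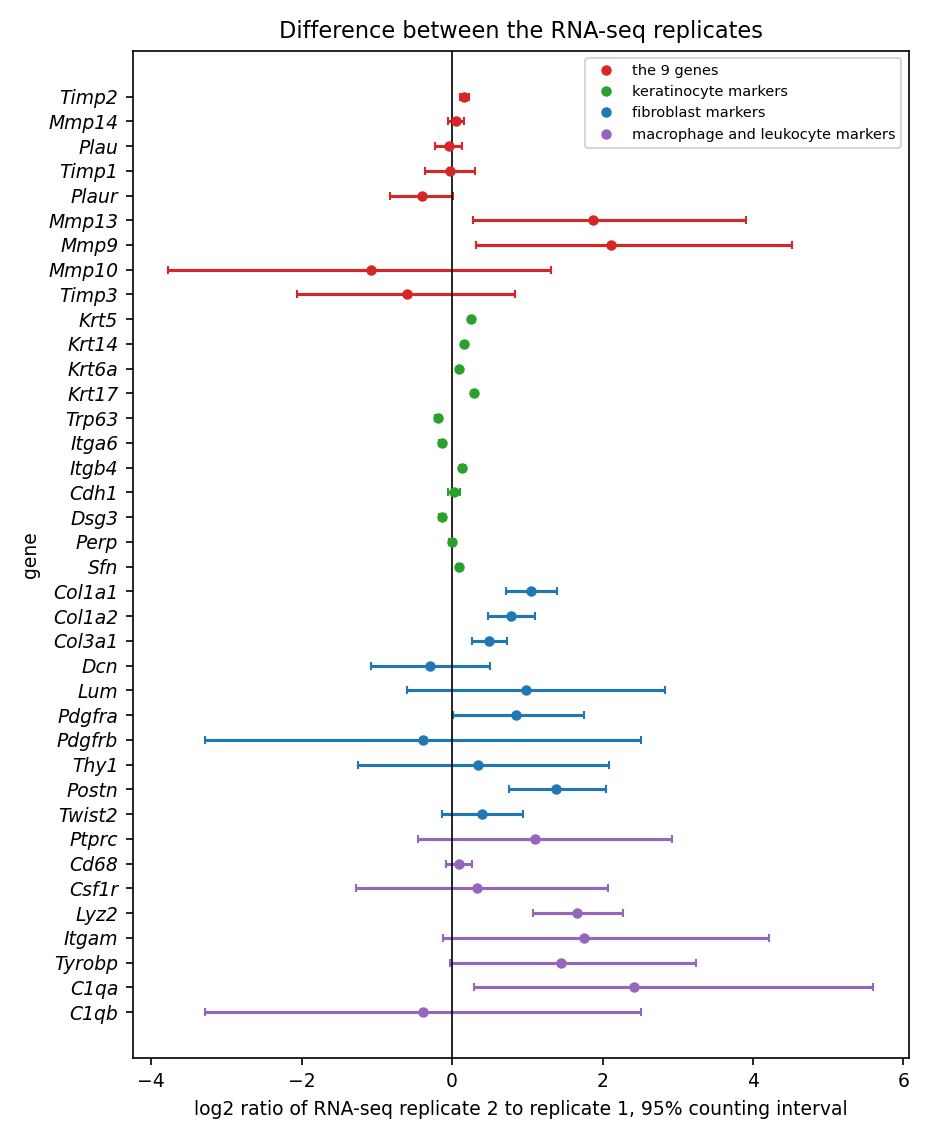
Replicate 2 relative to replicate 1 of RNA-seq as a log2 ratio, scaled to the exon counts of each library, with its 95% counting interval, for the 9 genes and the marker genes of keratinocytes, fibroblasts and macrophages or other leukocytes. *Mmp13* (1.88) and *Mmp9* (2.11) lie to the right of 0, as do *Col1a1*, *Postn* and *Lyz2*. Keratinocyte markers lie between -0.18 (*Trp63*) and 0.29 (*Krt17*), with the interval above 0 for 6 of 11 and below 0 for 3.

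The wider system of extracellular proteolysis was read from 7 further lists with 62 genes, all listed in the tables. In total 27 passed the filters, with a median log2 translational efficiency of -0.10. *Serpinb2* lay above 1 and 5 genes lay below -1, against 20.8% and 21.1% of all genes. With RNA counted over the CDS, *Mmp24* moved from below -1 to above 1, which gave 2 genes above and 4 below.

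Of 9 other genes of the plasminogen system, 6 were detected in both replicates and 5 passed. Plasminogen itself (*Plg*) and *Vtn* had 0 counts in all 3 libraries, so RNA of the substrate of urokinase was not detected at this depth. The urokinase inhibitor PAI-2, *Serpinb2*, had 13.0 and 12.8 RPKM in RNA and 806 footprints, 183 RPKM, with a log2 efficiency of 3.49 (3.34 to 3.64), higher than any of the 9 genes. *Lrp1*, the endocytic receptor that clears protease and inhibitor complexes, had 28.6 and 31.6 RPKM in RNA and -1.83 (-1.97 to -1.71). *Plgrkt*, a plasminogen receptor, had 74.3 and 62.0 RPKM and an efficiency of -0.10.

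Of 19 other metalloproteinases, 10 were detected and 3 passed, and 7 were at 0 in replicate 1. The 3 highest in RNA were *Mmp24* (12.9 and 13.4 RPKM), *Mmp28* (7.66 and 8.16 RPKM) and *Mmp15* (3.57 and 3.58 RPKM), all below *Mmp14*. *Mmp28*, an epidermal metalloproteinase, had 41.8 footprints and an efficiency of -0.38. *Mmp24* had 4.0 footprints and -4.78, but 2.48 with RNA counted over the CDS, so its direction depends on the region. *Mmp15* had 3.0 footprints and -3.40. The substrate that MT1-MMP activates, *Mmp2*, had 18.5 and 33.9 RNA-seq counts, 0.568 and 0.796 RPKM, and 1.56 footprints, and was picked here for that role. Of the other inhibitors, *Timp4* was at 0 in all 3 libraries, and *Reck*, a membrane-anchored inhibitor, had 6.0 and 1.0 counts and 0 footprints.

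Other cell-surface and lysosomal proteases were listed as well. Of 11 ADAM and ADAMTS genes 9 were detected and 7 passed, led by *Adamts1* (66.7 and 69.9 RPKM, efficiency -0.81), the sheddase *Adam10* (65.2 and 60.1 RPKM, -0.38) and *Adam9* (58.9 and 51.5 RPKM, 0.14). Of 7 membrane serine protease genes and their inhibitors 5 were detected and 4 passed. Matriptase (*St14*, 28.7 and 32.6 RPKM, -0.46) was accompanied by its inhibitors *Spint2* (130 and 146 RPKM, 0.86) and *Spint1* (32.9 and 33.2 RPKM, -0.20).

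All 9 cathepsin and cystatin genes were detected and 6 passed, with a median efficiency of 0.60. The highest in RNA were the lysosomal proteases *Ctsd* (464 and 509 RPKM, -0.49) and *Ctsl* (414 and 432 RPKM, 0.98), and the cystatin *Cstb* (319 and 308 RPKM, 0.62). Among 5 proprotein convertases and inducers, 2 were detected and passed. *Bsg*, a surface glycoprotein known to induce metalloproteinases in neighbouring fibroblasts, had 232 and 277 RPKM and 0.24. *Furin*, which removes the propeptide of MT1-MMP, had 43.4 and 50.2 RPKM, close to *Mmp14* itself, and an efficiency of -1.41 (-1.64 to -1.21). *Hpse* had 2.0 and 7.0 counts. *Adam15*, named after its value was seen as the remaining gene below -1, had an efficiency of -2.01 on 48.8 footprints.

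**Figure D5:**
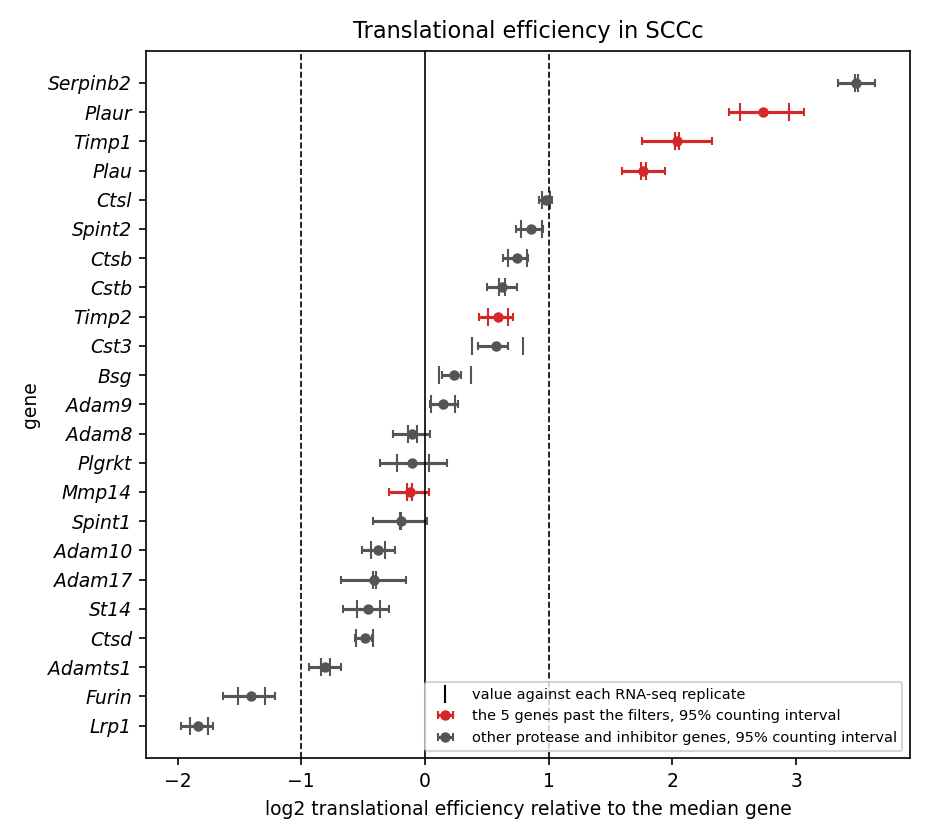
Log2 translational efficiency relative to the median gene, with 95% counting intervals and ticks for the value against each RNA-seq replicate, for the 5 of the 9 genes that passed (red) and other protease and inhibitor genes that had 100 counts or more in each library (grey), 1 of which is not shown. *Serpinb2* (3.49), *Plaur* (2.73), *Timp1* (2.04) and *Plau* (1.77) lie above 1, and *Furin* (-1.41) and *Lrp1* (-1.83) below -1.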

How the data were processed

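The estimated counts deposited by the authors, which need not be whole numbers, give the reads of each gene on exons, on the CDS and on either UTR, in 1 table per library. Before that, the authors trimmed adapters (TrimGalore), discarded footprint reads that Bowtie2 2.4.1 placed on rRNA, tRNA or mitochondrial sequence, aligned the rest to GRCm38 by STAR 2.6.1 and counted with Plastid. The RPKM deposited by the authors divides by library totals of 202893242 (ribosome profiling), 50733402 and 65593171 reads (RNA-seq replicates 1 and 2), of which exon counts make up 1.75%, 21.1% and 21.3%, so RPKM was computed again from the exon sums. The counting annotation and its treatment of strand are not given in the sources used here. The limits of 1 RPKM and a base mean of 25 have the values named in the study's methods, but were applied here to RPKM over exon sums and to a base mean over these 3 libraries. With the deposited RPKM, 8204 genes passed in place of 9863.

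The base mean used size factors of DESeq2 1.42.0, after rounding the counts. Scaling with these factors, and with TMM factors from edgeR 4.0.16, was among the alternatives. The others were each RNA-seq replicate left out, RNA counted over the CDS, a pseudocount of 1 RPKM, a minimum of 100 counts, no filter, the deposited RPKM, counts not divided by length and, added after seeing the data, ratios of sums over all listed inhibitors and metalloproteinases. Intervals are exact Poisson for levels and exact binomial for ratios of counts, and differences of efficiencies and ratios of sums use a normal approximation on the log scale (Python 3.11.15 with pandas 2.3.3, scipy 1.17.1 and numpy 2.4.6). With 1 ribosome profiling library and 1 condition, no test across libraries was made. The calculation was tested on simulated counts.

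Gene positions and CDS came from GENCODE M21. All 9 genes are named with every value, and of each further list the 3 highest in RNA plus those beyond a log2 efficiency of 1 in either direction where each library held 100 or more counts. Values of 1 gene taken by this rule are not reported here. The 9 genes and the lists were chosen with earlier results of these data known. Markers covered keratinocytes, fibroblasts, macrophages and other leukocytes, neutrophils, endothelial cells and melanocytes.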

Additional observations from a re-analysis of the deposited data

Results flagged for a closer look

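Footprints on 3′UTRs entered none of the comparisons, because ribosomes usually leave the mRNA at the stop codon. More than 3 counts, the detection limit, were nevertheless seen on 3 of the 9 genes. There were 12.9 footprints on the *Timp2* 3′UTR, 5.85 on that of *Plaur* and 4.52 on that of *Mmp14*. Per length, these lay at log2 ratios of -7.13, -3.53 and -4.53 to the CDS of the same gene. The median over 7378 genes that passed, with at least 60 counted bases and a footprint there, was -5.36, with quartiles of -6.53 and -4.14, so *Plaur* lay above and *Timp2* below the middle range.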

How the results depend on the processing

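No paired analysis was possible because only the RNA-seq libraries carry replicate numbers and a single ribosome profiling library was used. In all 10 alternatives 4 to 6 of the 9 genes passed the filters, 2 or 3 of them lay above 1 and 0 lay below -1. With a detection limit of 10 counts, 5 of the 9 genes were detected in RNA in place of 9. A minimum of 100 counts in every library left 4829 genes, dropped *Plaur* and raised the median of all genes, which is subtracted, by 0.39, and the median of the remaining members was 0.78. It was 1.15 with no filter, which let in *Mmp10* on 1 footprint, 1.93 with RNA counted over the CDS and 1.94 with counts not divided by length. Leaving out an RNA-seq replicate gave 1.74 to 1.77. The log2 ratio of inhibitor to metalloproteinase RNA was 1.85 with RNA over the CDS, 1.20 with a pseudocount of 1 RPKM and 1.65 with counts not divided by length, and that of footprints was 0.86 with counts not divided by length; the causes were not tested. Summed over all listed inhibitors and metalloproteinases, an alternative chosen after seeing the data, the ratios were 0.56 for RNA and 2.04 for footprints, since the wider lists add more metalloproteinase than inhibitor RPKM. Of 49 efficiencies of single members under the alternatives, 14 moved by more than the SD of that gene's own values against the separate RNA-seq replicates. *Plau*, *Plaur* and *Timp1* were above 1 in each alternative in which they passed. *Timp2* ranged from -0.86 (counts not divided by length) to 0.67 and *Mmp14* from -0.52 (minimum of 100 counts) to 0.34 (counts not divided by length). TMM and DESeq2 factors shifted the median of all genes by 0.56 and 0.63, which the subtraction of that median removes. Depth limits *Mmp9*, *Mmp10*, *Mmp13* and *Timp3* most: at median efficiency each would give fewer than 3 footprints.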

Other observations

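Some protease genes outside the 9 had RNA in both replicates and no footprints where a gene of median efficiency would have had several. They were picked after their values were seen. *Mmp19* had 68.8 and 95.5 RNA-seq counts and 0 footprints, with 12.9 at median efficiency. *Adam19*, with 66.9% of its CDS counted, had 87.5 and 132 counts and 0 footprints, with 11.4 at median efficiency. *Cst6*, an inhibitor of cathepsins made by keratinocytes, was the opposite, with 35.0 and 46.0 RNA-seq counts and 55.2 footprints, where 1.67 would be the number at median efficiency. It fell short of the filter of 1 RPKM, at 0.826 and 0.831 RPKM in RNA. The counted exons of *Cst6* are much longer than its counted CDS of 447 bases, which is 84.5% of the annotated one. Its RPKM and its number at median efficiency both rest on RNA over all exons, so they depend on the region counted. RNA over the CDS of *Cst6* alone was not compared.

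*Ctss*, a cathepsin known from macrophages, had 3.0 and 33.9 RNA-seq counts and 0 footprints. *Mmp3*, the closest relative of *Mmp10* in the list, had 8.05 and 26.5 RNA-seq counts and 0 footprints, and *Mmp12*, a macrophage elastase, 13.0 and 27.0 with 0 footprints.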
